A study of Mus musculus with 6 samples.

Results

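Exon blocks that were read almost only after knockdown of Eif4a3 were collected from mouse blastocysts. A block here is a merged stretch of overlapping annotated exons of 1 gene, and its count is that of its most counted exon line. Blocks were selected on the measured contrast itself, as those with at most 2 counts summed over the 3 control libraries and at least 20 over the 3 knockdown libraries, in genes whose blocks summed to at least 50 counts in every library. This gave 147 blocks in 114 genes, of 291424 blocks in the whole table. They were 0.203% of the 72356 blocks that lay in such genes and reached 20 counts in either group. The reverse selection, with the groups exchanged, gave 243 blocks in 127 genes (0.336%). Because the selection used the contrast, the counts of selected blocks are given as a description and carry no test.

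Zygotes had been microinjected with siRNA-NC, a negative control, or with siRNA-Eif4a3, and embryos were collected at day 5 as blastocysts. Each group had 3 Smart-seq2 libraries, and each library was a pool of 5 embryos. All embryos were therefore injected, and no strain, parent or other genotype is given in the labels. Nothing states that the pools of a group had separate parents, so the p-values below measure only the spread between these libraries.

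EIF4A3 is the RNA helicase that clamps the exon junction complex onto spliced mRNA just upstream of each junction. During translation, a complex that stays behind downstream of a stop codon recruits UPF proteins and marks the mRNA for nonsense-mediated decay (NMD). Exons whose inclusion brings such an early stop codon are called poison exons, and their transcripts are usually scarce while decay is active. The complex also takes part in the choice of splice sites.

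Sequences of 10 selected exons are printed first. They were chosen to show exons with an early stop codon, beside coding exons for comparison, and do not represent the classes in proportion. The annotation used for the classes, GENCODE vM21 on the build GRCm38, places each of the next 7 exons in transcripts of the NMD class and in no protein-coding transcript, and its reading frame meets a stop codon inside the exon. The sequence runs from the first base of the exon to that stop codon, which is in capitals.

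Smn1, chr13:100125819-100125931, plus strand: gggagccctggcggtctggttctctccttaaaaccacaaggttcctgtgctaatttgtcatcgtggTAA
Poc1a, chr9:106325389-106325516, plus strand: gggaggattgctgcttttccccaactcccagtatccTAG
Osgepl1, chr1:53321305-53321384, plus strand: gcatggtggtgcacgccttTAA
Mettl25, chr10:105836127-105836220, minus strand: gctcagtgctgctattgaagtcctcgTAG
Copz2, chr11:96852111-96852154, plus strand: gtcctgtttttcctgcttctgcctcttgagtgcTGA
Zfp280d, chr9:72303245-72303327, plus strand: ggtctgataggatcaccatttaagatgTGA
Rdm1, chr11:101633015-101633142, plus strand: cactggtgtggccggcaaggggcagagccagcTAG

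The frame of the Rdm1 transcript rests on an annotated coding sequence whose start was not found. In Clk4 the exon is read through, and the annotated stop codon comes 212 bases before the last junction in a later exon, so the exon is shown whole.

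Clk4, chr11:51268769-51268846, plus strand: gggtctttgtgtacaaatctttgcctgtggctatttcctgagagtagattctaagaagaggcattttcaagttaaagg

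A pair of coding exons is shown for comparison, and no untranslated or non-coding member is printed. The Bub3 exon belongs to a protein-coding transcript other than the principal one, and its 73 bases are not a multiple of 3. The Fam98b exon is part of the principal transcript, and its 168 bases are a multiple of 3.

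Bub3, chr7:131563633-131563705, plus strand: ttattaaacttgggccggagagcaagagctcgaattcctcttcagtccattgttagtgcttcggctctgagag
Fam98b, chr2:117267780-117267947, plus strand: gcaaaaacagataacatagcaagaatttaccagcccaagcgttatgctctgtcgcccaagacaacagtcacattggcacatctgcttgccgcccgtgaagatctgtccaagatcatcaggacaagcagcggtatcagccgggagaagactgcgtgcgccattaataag

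Block sums per library ran from 15607227 to 18389986 in siRNA-NC and from 16157719 to 18697754 in siRNA-Eif4a3. Eif4a3 itself was at 302, 255 and 202 CPM (counts scaled to the effective library size) in siRNA-NC replicates 1 to 3 and at 16.0, 36.2 and 56.2 in the knockdown. The libraries held blastocyst markers in both groups. The 5 trophectoderm markers Cdx2, Eomes, Krt8, Krt18 and Tfap2c summed to between 1841 and 5030 CPM in siRNA-NC and between 462 and 2021 in the knockdown, and all 5 had the lower mean there. The 3 epiblast markers summed to 221 to 273 against 116 to 157 CPM, and the 4 primitive endoderm markers to 75.9 to 84.7 against 54.2 to 71.4. Cumulus cell markers stayed at or under 0.0606 CPM in all libraries. The 3 blood markers summed to 5.64 to 33.9 against 2.44 to 4.94 CPM. The part of cell make-up in the block counts was not tested, and fewer cells of a type and less RNA per cell cannot be told apart in pooled embryos.

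The 147 blocks together were at 2.04, 3.39 and 3.81 CPM in siRNA-NC and at 111, 105 and 92.1 CPM in the knockdown libraries. In siRNA-NC, 43 blocks had no count, 58 had 1 and 46 had 2. In the knockdown, the median block had 29 counts over the 3 libraries and the highest had 229. All 3 knockdown libraries contributed to 136 blocks, and 72 blocks had at least 5 counts in each. Knockdown replicate 1 held the largest count for 79 blocks, replicate 2 for 43 and replicate 3 for 25. Replicate 1 was also the library with the least Eif4a3 and the largest effective library size. Without replicate 1, 57 of the 147 met the same limits on the other libraries, 14 of them in the NMD class described below. Without replicate 2, 85 did, and without replicate 3, 96. For 11 blocks 1 library gave over 75% of the knockdown counts. The CPM values of the groups did not overlap for 129 of the 147 blocks, which the selection nearly fixes. Among the 71966 measured blocks that neither selection took, every knockdown library was above every control library for 14.7% and below for 16.8%.

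The remaining blocks of the 114 host genes differed between groups by a median of 0.48 on the log2 scale (quartiles −0.13 and 1.20), and in 79 hosts they were within 2-fold. With edgeR's quasi-likelihood test on whole-gene sums, which include the selected block, 29 hosts were called higher and 1, the fatty acid oxidation gene Eci2, lower at an adjusted p of 0.05. Over all 15619 genes tested, 7.52% were called higher and 5.56% lower. Fewer hosts were called higher without siRNA-NC replicate 1 (15), 2 (10) or 3 (16) and without knockdown replicate 2 (16) or 3 (18), and 29 without knockdown replicate 1. Eci2 lost its call without any 1 of the siRNA-NC libraries, without knockdown replicate 2 and on the most counted block of each gene alone. The same libraries chose the blocks, so nothing is read from the host counts.

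Annotation class differed between the 2 selections, as did the share of blocks in thinly read stretches. All 147 blocks and all 243 of the reverse selection held an exon with an exact match in GENCODE vM21. Each block was given the first class that any of its exon lines had, in the order principal coding, other coding, untranslated, NMD transcripts alone, other non-coding transcripts of coding genes, and non-coding genes. Blocks in NMD transcripts alone were 31 of the 147 (21.1%), against 2 of 243 in the reverse selection (0.823%) and 862 of the 72356 measured blocks (1.19%). By the class of the most counted exon line alone, the 2 selections kept these shares, and measured blocks had 1924 (2.66%). Other non-coding transcripts of coding genes held 26 (17.7%), against 5 (2.06%) and 0.966%. Exons of principal coding transcripts were 56 (38.1%), against 225 (92.6%) and 89.7%. Other coding exons made up 9 blocks, untranslated exons 13 and non-coding genes 12. The contrast in the NMD class was smaller among blocks whose every adjacent block had at least 20 counts in the group with few counts. There it held 13 of 41 selected blocks and 2 of 12 of the reverse selection. Other non-coding transcripts held 19 and 4 of these, and principal coding exons 0 and 4. The part of thin coverage in the class shares was not tested.

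**Figure D1:**
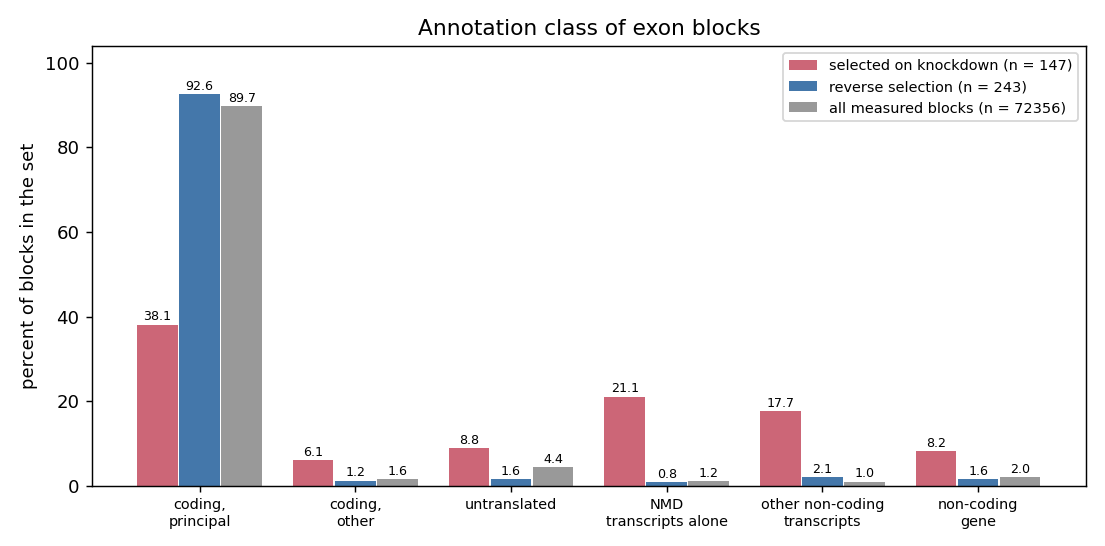
Percent of exon blocks (y axis) in each annotation class (x axis) for the 147 blocks selected on knockdown, the 243 of the reverse selection and all 72356 measured blocks. Blocks in NMD transcripts alone are 21.1% of the first set, 0.8% of the second and 1.2% of all, while principal coding exons are 38.1%, 92.6% and 89.7%.

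In position along the gene, 9 of the selected blocks were first, 123 internal and 15 last (83.7% internal), against 7, 232 and 4 in the reverse selection (95.5% internal) and 80.5% internal among measured blocks. Their median length was 122 bases, with quartiles 83.5 and 185.5 and a range of 14 to 3274. The median was 145 bases in the reverse selection and 161 over measured blocks. Lengths were a multiple of 3 in 50 blocks (34.0%), in 42.8% of the reverse selection and in 36.0% of measured blocks. Within the NMD class, 7 of 31 were (22.6%), against 34.8% of all measured blocks of that class. These lengths are of merged blocks. Of the 31 annotated NMD exons themselves, 25 were not a multiple of 3. An exon of another gene overlapped 14 of the blocks (9.52%), on the same strand for 8 and the opposite strand for 6, and 8.88% of measured blocks.

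The 31 blocks of the NMD class lay in 28 genes. One of them, in the readthrough gene Gm20716, is the same interval and the same reads as a selected coding exon of Adnp. It counts in the NMD class because only transcripts of a block's own gene set its class where any matched. The 147 blocks are thus 146 distinct intervals. The 31 blocks summed to 0.398, 0.598 and 0.722 CPM in siRNA-NC and to 27.1, 27.3 and 22.9 CPM in the knockdown. Of these, 29 had counts in all 3 knockdown libraries. The annotated stop codon lay inside the exon for 13, after it for 6 and before it for 12. In all 31 it lay more than 50 bases upstream of the last exon junction of the transcript. The annotation assigns the NMD class largely by that distance, so nothing is read from this count. For the 13 with the stop codon inside, that distance ran from 78 to 3275 bases with a median of 236. The class as a whole did not follow its selected members in size. Over all genes, its 1917 blocks outside both selections summed to 7255 ± 1581 CPM in siRNA-NC and 7815 ± 1689 CPM in the knockdown (mean ± SD, n = 3). Of the 829 that were measured, every knockdown library was above every control library for 233 (28.1%) and below for 66 (7.96%). Over all classes these shares were 14.7% and 16.8%, and in principal coding blocks 13.7% and 17.4%. In every other class the share above was also the larger, so this skew is not particular to the NMD class. The shares were 32.2% and 7.93% in other non-coding transcripts and 26.4% and 10.9% in non-coding genes.

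**Figure D2:**
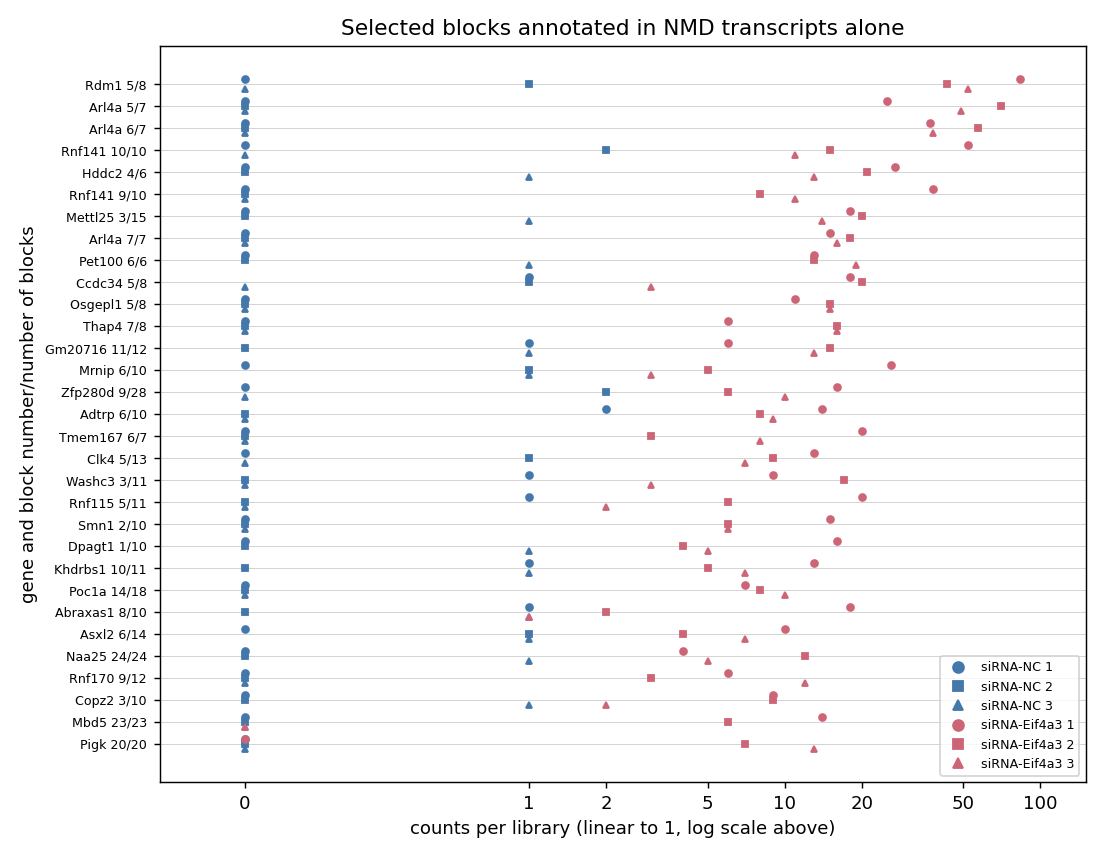
Counts (x axis, linear to 1 and logarithmic above) of the 31 selected blocks in NMD transcripts alone, named by gene and block number (y axis), with 1 point per library. All siRNA-NC points lie between 0 and 2, and the knockdown points reach 83 counts in Rdm1.

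Rdm1, a gene with an RNA recognition motif linked to DNA repair, had the most knockdown counts of this class. Its exon, block 5 of 8, had 0, 1 and 0 counts in siRNA-NC replicates 1 to 3 and 83, 43 and 52 in the knockdown. The groups did not overlap, which the selection nearly fixes. The rest of the gene rose as well, from 45.9 to 740 CPM summed over its other blocks, and the whole-gene log2 change was 4.02 (SE 0.38, adjusted p = 0.0008, edgeR quasi-likelihood). In the knockdown the exon reached 2.48% of the mean count of its neighbours, blocks 4 and 6, and 0.236% in siRNA-NC. Here and below, neighbours in a percentage are the nearest blocks on both sides that were not selected and had at least 20 counts in a group.

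Hddc2, which encodes an HD-domain nucleotidase, gave the same form without a large change of its host. Its 70-base exon, block 4 of 6, had 0, 0 and 1 counts in siRNA-NC and 27, 21 and 13 in the knockdown. The block before it had 170, 126 and 138 counts in siRNA-NC and 216, 294 and 215 in the knockdown. The exon thus stood at 0.214% of its neighbours in siRNA-NC and at 8.03% in the knockdown. The whole gene had a log2 change of 0.60 (SE 0.30, adjusted p = 0.206, edgeR), which did not pass the test.

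Osgepl1, a mitochondrial tRNA-modifying enzyme, had no count of its 80-base exon in any siRNA-NC library and 11, 15 and 15 in the knockdown. Neighbouring blocks had between 48 and 100 counts per siRNA-NC library. The exon stood at 5.53% of its neighbours in the knockdown, and the gene itself rose by 1.57 on the log2 scale (SE 0.31, adjusted p = 0.0116, edgeR), which did not pass without siRNA-NC replicate 2.

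Smn1 encodes the survival motor neuron protein, which assembles small nuclear ribonucleoproteins for the spliceosome. Its 113-base exon, block 2 of 10, had no siRNA-NC count and 15, 6 and 6 in the knockdown. The flanking blocks had 117 to 255 counts in each siRNA-NC library, where the exon itself was at 0. In the knockdown it stood at 2.89% of the neighbours.

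Poc1a, a centriole protein gene, had no siRNA-NC count of its 128-base exon and 7, 8 and 10 in the knockdown. Its whole-gene log2 change of −0.17 (SE 0.28, adjusted p = 0.729, edgeR) did not pass the test. Thap4 had the counterpart near its 3′ end, where block 7 of 8 had no siRNA-NC count and 6, 16 and 16 in the knockdown. In both genes the knockdown libraries lay above all controls, which the selection nearly fixes.

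Mettl25, a methyltransferase-like gene, differed in its surroundings. Its exon, block 3 of 15, had 0, 0 and 1 counts in siRNA-NC and 18, 20 and 14 in the knockdown, which was 74.8% of its neighbours. Of those neighbours, block 2 had 1 siRNA-NC count in all and block 4 had none, so that percentage rests on the nearest blocks with counts, block 1 with 13, 1 and 3 and block 5 with 21, 2 and 0. Copz2, a coatomer subunit gene, had 0, 0 and 1 against 9, 9 and 2 counts of its 44-base exon. The blocks before and after it were themselves low in siRNA-NC, with 21 and 23 counts over the group against 119 and 123 in the knockdown. Zfp280d had 0, 2 and 0 against 16, 6 and 10. The controls and knockdown libraries did not overlap in either gene, which the selection nearly fixes. Both hosts rose as whole genes. The log2 change was 2.17 in Copz2 (SE 0.42, adjusted p = 0.0105, edgeR) and 1.33 in Zfp280d (SE 0.30, adjusted p = 0.0201, edgeR).

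Arl4a, which encodes an ARF-like GTPase, held 3 members of this class downstream of its coding block. Block 5, of 169 bases, had 0 counts in every siRNA-NC library and 25, 70 and 49 in the knockdown. Block 6, of 3121 bases, had 0 against 37, 57 and 38. The last block, 265 bases long, had 0 against 15, 18 and 16. Block 3, with the coding sequence, was read in both groups, with 160, 287 and 294 counts in siRNA-NC and 400, 487 and 639 in the knockdown. The 3 distal blocks are thus the only blocks of the gene read in the knockdown and in no control library. The stop codon of their annotated transcript starts at base 13 of block 5. The same shape was seen in Rnf141, a RING finger gene, whose distal blocks 9 and 10 had 0, 0 and 0 and 0, 2 and 0 counts in siRNA-NC against 38, 8 and 11 and 52, 15 and 11. Block 10 is overlapped by an exon of another gene on the opposite strand, and Smart-seq2 reads carry no strand.

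Clk4 is a kinase that phosphorylates SR splicing factors. Its 78-base exon, block 5 of 13, had 0, 1 and 0 counts in siRNA-NC and 13, 9 and 7 in the knockdown. It was 22.7% of its neighbours in the knockdown and 2.60% in siRNA-NC. The whole gene rose by 1.35 on the log2 scale (SE 0.31, adjusted p = 0.0201, edgeR), a call lost without siRNA-NC replicate 1 or 2 and without knockdown replicate 2. Block 4, which was not selected, had 3, 1 and 5 against 39, 20 and 6 counts. Block 6, also of the NMD class, was read in all 6 libraries, with 37, 15 and 16 against 86, 60 and 45.

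Srpk2, the second SR protein kinase with a member, contributed a 1010-base block of a non-coding transcript with 0, 2 and 0 against 9, 8 and 3 counts. Over all 8538 genes with the required block sum, 114 (1.34%) held a selected block and 127 (1.49%) a block of the reverse selection. Among 15 gene lists, 4 held any knockdown-selected block. The NMD factors had 2 blocks in 1 of 8 such genes, and the SR proteins and their regulators 2 blocks in 2 of 26. The p53 and apoptosis list had 1 block in 1 of 24, and the cholesterol list 1 block in 1 of 22. With 1 or 2 genes each, no difference from the share over all genes is read from these counts. Exon junction complex, hnRNP, core spliceosome and snoRNA host genes held none. The reverse selection had 9 blocks in 4 of 27 chromatin regulators, 9 in 2 of 24 blastocyst lineage genes and 9 in 2 of 24 epithelium genes. It had 2 blocks in 2 of 34 core spliceosome genes and 2 in 2 of 23 genes of the translation list. In the edgeR gene test, 0 of 12 NMD factors were called higher or lower, 3 had an unadjusted p under 0.05, and DESeq2 called 0. Of 27 SR proteins and regulators, 3 were called higher and 1 lower, near the 7.52% and 5.56% over all genes.

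Blocks of other non-coding transcripts mostly lay among exons that siRNA-NC libraries held. In 19 of 26 every adjacent block had at least 20 counts summed over siRNA-NC, as it did in 13 of 31 of the NMD class, 7 of 9 other coding blocks and 0 of 56 principal coding blocks. Vrk2, a serine/threonine kinase gene, had 0, 2 and 0 counts of its 125-base block in siRNA-NC and 22, 39 and 8 in the knockdown. Its neighbours had 67 to 171 counts in each siRNA-NC library, and the whole gene changed by −0.04 on the log2 scale (SE 0.27, adjusted p = 0.935, edgeR). Cth, the cystathionine gamma-lyase gene, had 0, 0 and 2 against 11, 27 and 22. Tfb2m, a mitochondrial transcription factor gene, had 0, 1 and 0 against 28, 13 and 14. Msmo1, a sterol oxidase of cholesterol synthesis, had 0 against 6, 10 and 6. The Msmo1 block was only 0.495% of its neighbours, and its host rose by 1.70 on the log2 scale (SE 0.29, adjusted p = 0.0068, edgeR).

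Bub3, a mitotic checkpoint gene, led the other coding exons. Its 73-base block, printed above, had 1, 0 and 0 counts in siRNA-NC and 42, 24 and 6 in the knockdown. Neighbouring blocks had 773 to 1593 counts in each siRNA-NC library, and the block went from 0.0313% to 2.05% of them. The whole gene changed by 0.02 (SE 0.27, adjusted p = 0.975, edgeR). Ift27, an intraflagellar transport gene, had 0, 1 and 0 against 16, 16 and 10. Orc6, a subunit of the origin recognition complex, had a 32-base block with 0, 0 and 1 against 17, 12 and 0, so knockdown replicate 3 did not differ from the controls. Prkrip1 had 0, 1 and 0 against 14, 5 and 7, and its most counted exon line is of the NMD class.

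**Figure D3:**
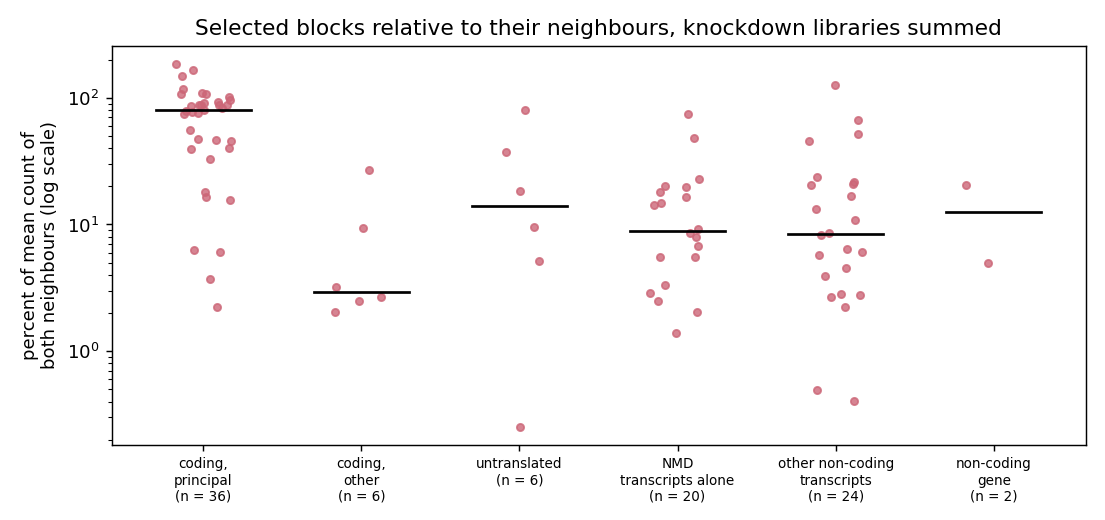
Knockdown count of each selected block as a percent of the mean count of its neighbours (y axis, log scale) by annotation class (x axis). Points are blocks with such a neighbour on both sides, and bars are medians: 8.92% for the NMD class and 79.5% for principal coding exons.

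Selected exons of principal coding transcripts had another form. Their median was 79.5% of the neighbours in the knockdown (36 blocks), against 8.92% in the NMD class (20 blocks), 8.41% in other non-coding transcripts (24 blocks) and 2.92% in other coding exons (6 blocks). In 47 of the 56, every adjacent block also had under 20 counts summed over siRNA-NC, and 26 lay next to another selected block. These blocks were thus mostly stretches of a gene that siRNA-NC libraries hardly covered. The reverse selection looked alike, with 210 of 225 such blocks between adjacent blocks with under 20 counts in the knockdown.

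**Figure D4:**
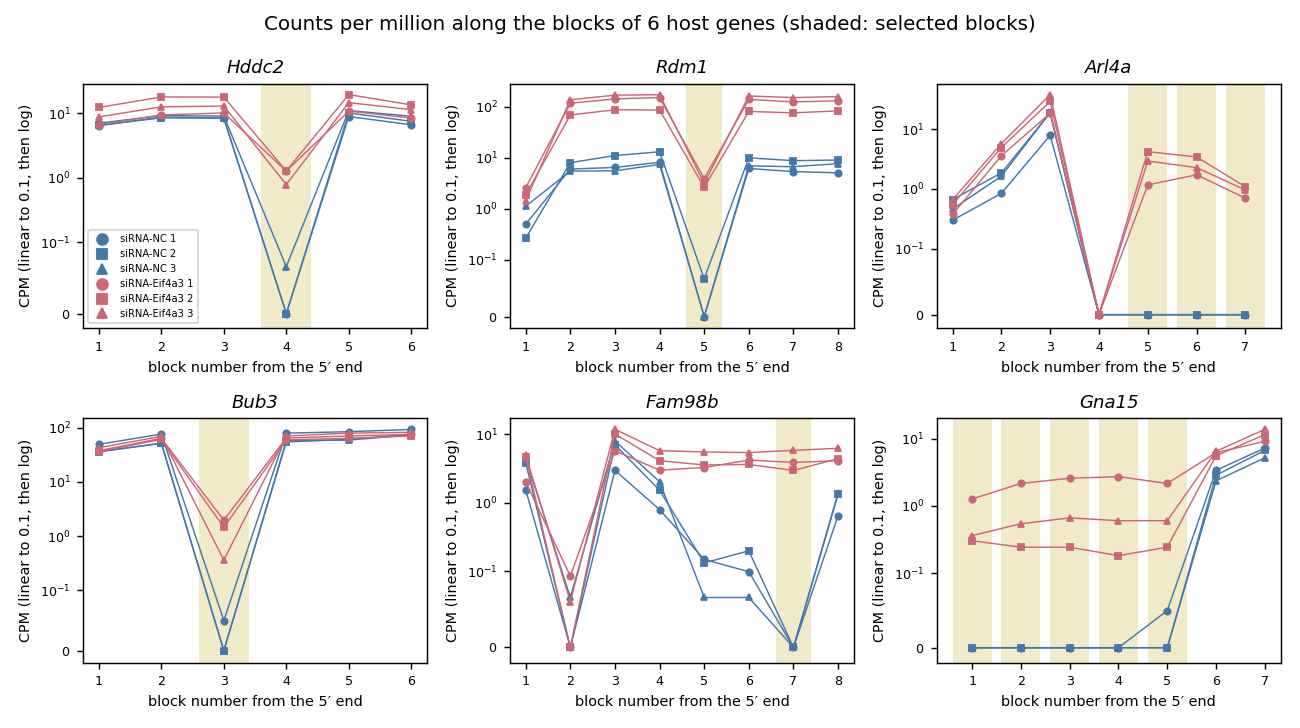
CPM (y axis, linear to 0.1 and logarithmic above) along the blocks of 6 host genes from the 5′ end (x axis), 1 line per library, with selected blocks shaded. In Hddc2, Rdm1 and Bub3 a single block is near 0 in siRNA-NC and higher in the knockdown between read neighbours, in Arl4a the 3 distal blocks do, and in Fam98b and Gna15 whole stretches of coding blocks are low or at 0 in siRNA-NC.

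Fam98b, a gene of the tRNA ligase complex, had the highest count of all. Its block 7 of 8 had 0 in every siRNA-NC library and 83, 49 and 97 in the knockdown. Block 5 had 3, 2 and 1 against 70, 59 and 92, and block 6 had 2, 3 and 1 against 90, 60 and 90. Upstream, block 3 was read in both groups with 60, 106 and 122 against 123, 167 and 197 counts. The control libraries thus held the 5′ part of the gene and few reads from block 5 to block 7, while the knockdown libraries covered all of these. The whole gene rose by 1.54 on the log2 scale (SE 0.41, adjusted p = 0.0359, edgeR), a call that held without knockdown replicate 1 and was lost without any other library.

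Gna15, a G protein alpha subunit gene, had its first 5 of 7 blocks selected. Block 4 had 0 siRNA-NC counts and 58, 3 and 10 in the knockdown, and block 3 had 0 against 55, 4 and 11. Blocks 6 and 7 were read in every library, the last with 146, 101 and 79 against 195, 190 and 229 counts. Knockdown replicate 1 stands apart from the other 2 at all 5 blocks, with 27 to 58 counts against 3 to 11.

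Mtus2, a microtubule-associated gene, had 3 adjacent blocks, 12 to 14 of 18, selected. Block 14 had 0, 1 and 0 against 25, 12 and 41 counts, and block 15, just downstream, had 30, 35 and 58 against 84, 65 and 95. Upstream of block 12 no block exceeded 3 counts in any library. The selected stretch thus extends a 3′ part that both groups share.

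Tfcp2, a transcription factor gene, had blocks 10 to 12 of 19 selected. Block 11, of 49 bases, had 0 counts in siRNA-NC and 11, 14 and 14 in the knockdown. All its other blocks were also low in siRNA-NC, at 15 counts or fewer per library. The whole gene rose by 2.14 on the log2 scale (SE 0.39, adjusted p = 0.0085, edgeR). Cyp4f17, a cytochrome P450 gene, had 5 selected blocks and Abcc8, the sulfonylurea receptor gene, had 4, again within thinly read stretches.

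Upf2, the NMD factor that bridges UPF1 and UPF3, had blocks 10 and 11 of 23 selected. They had 1, 0 and 0 against 13, 9 and 3 counts and 0 against 9, 8 and 3. Blocks 4 to 20 of the gene had at most 8 counts in any siRNA-NC library, so these zeros lie in a thinly covered middle. The whole gene changed by 0.52 on the log2 scale (SE 0.33, adjusted p = 0.330, edgeR), which did not pass the test. Apaf1, the scaffold of the apoptosome, had its block 2 of 28 selected with 1, 0 and 0 against 13, 2 and 5 counts, in a gene whose last block had 62, 56 and 66 siRNA-NC counts and whose other blocks had at most 14 in any siRNA-NC library.

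Fhod1, a formin gene, gave a high count that its own gene does not share. Block 13 of 20 had 0, 1 and 0 counts in siRNA-NC and 49, 42 and 43 in the knockdown. The blocks on either side had 0 counts in every knockdown library, and the rest of the gene went from 6.54 to 1.52 CPM. An exon of Tmem208 overlaps this block on the opposite strand. That last block of Tmem208 had 0, 12 and 1 counts in siRNA-NC and 81, 54 and 72 in the knockdown, and which gene the reads came from cannot be told apart.

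First blocks were 9 in number. Tmem104, a membrane protein gene, had an untranslated first block with 1, 1 and 0 against 15, 10 and 14 counts. Nudt9, an ADP-ribose hydrolase gene, had 1, 0 and 0 against 12, 10 and 10 in a 33-base block that an exon of another gene overlaps on the opposite strand. Prkar1a, the regulatory subunit of protein kinase A, had 0, 0 and 1 against 20, 1 and 11, so knockdown replicate 2 stayed at the control level. H2-Ab1, a class II histocompatibility gene, had 0 against 13, 9 and 8, and Dpagt1, which starts the lipid-linked sugar chain for glycoproteins, had 0, 0 and 1 against 16, 4 and 5.

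Among the 15 last blocks, that of Abcc8 had 0, 1 and 1 against 9, 33 and 15 counts. Zfp445, a zinc finger gene that helps keep imprints, had 0 in siRNA-NC and 18, 27 and 4 in the knockdown. Pet100, an assembly factor of cytochrome c oxidase, had 0, 0 and 1 against 13, 13 and 19. Pmm2, the phosphomannomutase gene, had 0, 0 and 2 against 19, 7 and 10, and Tvp23b had 0 against 8, 11 and 8. Fez2 had 0, 1 and 1 against 24, 2 and 4, most of it in knockdown replicate 1. The Pet100, Pmm2 and Tvp23b hosts did not pass the gene test, with log2 changes of −0.39, −0.27 and 0.00.

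The limits of the selection lie within a continuous range. With at least 20 knockdown counts, 46 blocks had exactly 2 siRNA-NC counts and were taken, and 78 had 3 and were not. With at most 2 siRNA-NC counts, 31 blocks had 20 or 21 knockdown counts and 45 had 18 or 19. Just inside were Srpk2, Apaf1 and Copz2 with 20 knockdown counts each. Just outside, with 19, were a block of Bcor with 5, 10 and 4 counts and a 32-base block of Dtl, also of the NMD class, with 8, 10 and 1.

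The reverse selection differed from the knockdown selection in its build. Its 243 blocks summed to 219, 110 and 82.5 CPM in siRNA-NC and to 6.14, 5.39 and 4.63 in the knockdown. siRNA-NC replicate 1 held the largest count for 214 of them. Without that library 23 blocks met the limits, 0 of them in the NMD class, so this control selection rests largely on 1 library. Without siRNA-NC replicate 2 or 3, 129 and 151 did, each with 1 block in the NMD class, and without knockdown replicates 1 to 3 it was 1170, 540 and 491. The rest of the host genes was lower in the knockdown by a median of −1.14 on the log2 scale, and 51 of 127 hosts were called lower and 1 higher. Its leading blocks were coding exons of Anxa6, a membrane-binding annexin, with 107, 15 and 28 against 1, 0 and 0 counts, and of Lrp2, the endocytic receptor megalin, with 55, 25 and 13 against 0, 0 and 1. The median block stood at 74.1% of its neighbours in siRNA-NC, against 18.3% for knockdown-selected blocks in the knockdown. In 12 of 243 every adjacent block had at least 20 counts in the low group, against 41 of 147. The 2 blocks of the NMD class in the reverse selection were in Phkb and Npepl1.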

How the data were processed

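FeatureCounts was run by the authors on exon lines of GENCODE vM29 moved to GRCm38, per the file headers, and gave a count to every line that a pair overlapped, with strand setting 2. The submitters' processing notes name fastp 0.20.1, STAR 2.7.6a and featureCounts 2.0.1. The deposited values are raw counts, and Smart-seq2 marks neither strand nor molecule. A pair across a junction counts in more than 1 block.

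Repeated lines were dropped and overlapping exons of a gene merged into 291424 blocks. Classes, stop codons and sequences came from GENCODE vM21 (GRCm38) by exact exon match; that annotation differs from the counting one. CPM uses edgeR's effective library size. The percent of neighbours divides a block's count by the mean of the nearest unselected blocks with at least 20 counts in a group. Gene sums were tested with edgeR 4.0.16 (filterByExpr, TMM, glmQLFit and glmQLFTest, two-sided, Benjamini-Hochberg) in R 4.3.3, and with DESeq2 1.42.0 as an alternative. The code was tested on simulated data.

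Members, lists and rules were chosen with earlier results of these data known. Named blocks are the 8 with the highest summed knockdown CPM per position class (4 for the reverse selection) with a count in every knockdown library, members in the gene lists and blocks at the limits. The others were chosen after their values were seen. Alternatives varied the limits, merging, scaling, overlap and libraries. Intervals were not computed, as the blocks were selected on their counts.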

Additional observations from a re-analysis of the deposited data

How the results depend on the processing

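The number of selected blocks moves with each limit. From 147, it went to 43 with no siRNA-NC count allowed, 429 with up to 5, 568 with at least 10 knockdown counts, 26 with at least 50, 226 over distinct exon lines and 90 with counts scaled to the mean effective library size, where 1 count can exceed 1. The reverse count of 243 went to 49, 734, 1031 and 21 under the same first 4 limits. A block sum of 100 gave 105 and 163, and leaving out blocks that overlap other genes gave 133 and 241. Leaving out 1 library gave 57 to 398 knockdown blocks, 57 without knockdown replicate 1 and 398 without siRNA-NC replicate 1, and 23 to 1170 reverse blocks, 23 without siRNA-NC replicate 1 and 1170 without knockdown replicate 1.

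The NMD class held 31 of the 147. It held 12, 63, 81 and 7 under the 4 count limits, which is 14.3% to 27.9% of the blocks, and 14 to 53 with 1 library left out (at least 11.6%). In the reverse selection it held 0, 11 and 0 with no knockdown count, at least 10 and at least 50 counts, 15 of 356 exon lines (4.21%) and 0 to 9 with 1 library left out. These counts were added after seeing the data. Internal blocks were 123, or 103 by transcripts rebuilt from runs of lines, and the median share of the library with the most counts was 52.0%, or 50.7% scaled.

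Genes called numbered 2043 in all, 3319 with the DESeq2 Wald test, 3607 without the filter and 886 to 2354 with 1 library left out. The labels do not say that a replicate number marks a shared litter or day, so the number was not taken as a pairing. Same-numbered libraries had correlations of 0.37, 0.00 and 0.13 after group means were removed, and different-numbered ones from −0.30 to 0.27. A replicate block gave 2527 genes, with 36 hosts higher and 2 lower. Hosts called higher were 29, and 10 to 29 with 1 library left out. The lowest, 10, came without siRNA-NC replicate 2. Among hosts named with a call, Rdm1, Msmo1 and Tfcp2 kept it in 11 of 11 alternatives, Osgepl1 in 10, Clk4 in 8, Eci2 in 6 and Fam98b in 5. The calls of Copz2 and Zfp280d were not followed through the alternatives. Depth limits each single block, since 72 of 147 had at least 5 counts in every knockdown library.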
